A study of Danio rerio with 6 samples.

Results

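The genes that make prostaglandins and leukotrienes were followed in macrophages of zebrafish (Danio rerio) larvae homozygous for a mutation of cxcr3.2, a receptor gene for CXC chemokines, or wild type at it. The 9 listed members were ptgs1, ptgs2a, ptgs2b, ptges, alox5a, alox5ap, lta4h, ltc4s and hpgd. Their names matched 10 of the 31962 Ensembl genes counted. The table of gene names gives PTGS2 to 2 genes, ENSDARG00000004539 and ENSDARG00000010276, and does not say which is ptgs2a and which ptgs2b. They are called here the first and the second PTGS2 copy, in that order. It also gives ALOX5 to 2 genes, ENSDARG00000057273 and ENSDARG00000043085, called the first and the second ALOX5 copy. The list names only alox5a, and the table does not say which of the 2 it is, so both are counted as members. The name alox5b.1, part of a wider pathway list used below, matched the same 2 genes.

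There were 3 libraries of cxcr3.2-/- macrophages (mutant) and 3 of cxcr3.2+/+ macrophages (wild type). Every larva also carried the mpeg1:mCherryF transgene, in which the promoter of mpeg1, a macrophage gene, drives a membrane-bound red reporter. Red cells were sorted from dissociated larvae, with a separate pool of 150 to 200 larvae behind each library. The sample fields state an age of 6 days after fertilisation and the protocol 5 days. Levels are CPM (counts relative to library size) scaled by TMM, which sets the libraries to a common level over most genes, and fold changes are mutant over wild type. Adjusted p-values come from edgeR's quasi-likelihood test over all 16499 tested genes, with a threshold of 0.05.

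Prostaglandins and leukotrienes are short-lived lipid signals made from arachidonic acid, which phospholipases free from membranes. Cyclooxygenases (PTGS genes) turn it into a prostaglandin precursor that terminal synthases such as PTGES convert into the final prostanoids. ALOX5, aided by the membrane protein ALOX5AP, starts the leukotriene branch, from which LTA4H makes the neutrophil attractant LTB4 and LTC4S the cysteinyl leukotriene LTC4. In mammals macrophages are a major source of both families, PTGS2 is the cyclooxygenase induced by inflammatory stimuli, and LTA4H has been tied to the control of mycobacterial infection in zebrafish larvae.

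The libraries held 6239470 to 9607009 counts. All 23 genes of the macrophage marker list had counts in every library, and their summed level was 10647 to 10736 CPM in mutant libraries and 6871 to 8310 CPM in wild type libraries. Within this list apoeb alone averaged 4996 CPM in mutant and 2415 CPM in wild type macrophages, other genes were lower in the mutant (csf1rb, 74.03 and 123 CPM, adjusted p = 0.301), and the median log2 fold change was 0.16. Of the 23 genes, 2 were called higher, apoeb (adjusted p = 0.00983) and SPI1 (adjusted p = 0.0487). Only 1 was called lower, ctss2.2, at 15.9 CPM in mutant and 133 CPM in wild type macrophages (adjusted p = 0.00111). Markers of other cells were present as well. Epidermal markers (19 genes) summed to 4819 to 5085 CPM in mutant and 5758 to 6574 CPM in wild type libraries, and muscle markers (14 genes) to 1489 CPM in mutant replicate 2, against 88.0 to 134 CPM in the other libraries. The cxcr3.2 count cannot show whether a transcript carries the mutation, so it does not check the labels. In RNA from pools of sorted cells, fewer cells of a type and less RNA per cell cannot be told apart.

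Of the 10 members, 9 had enough counts to be tested. The first PTGS2 copy was lower in mutant macrophages, and no other member passed the test in either direction. This is 1 of 9 members, where 1.19% of all tested genes were called in either direction and 0.885% were called lower. Among the 9, 7 had negative and 2 had positive log2 fold changes, with a median of −0.36, beside a median of −0.03 over all tested genes, 52.1% of which were negative. The first PTGS2 copy was also the only member whose mutant libraries did not overlap its wild type libraries; across the table, 20.6% of tested genes had no overlap.

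**Figure D1:**
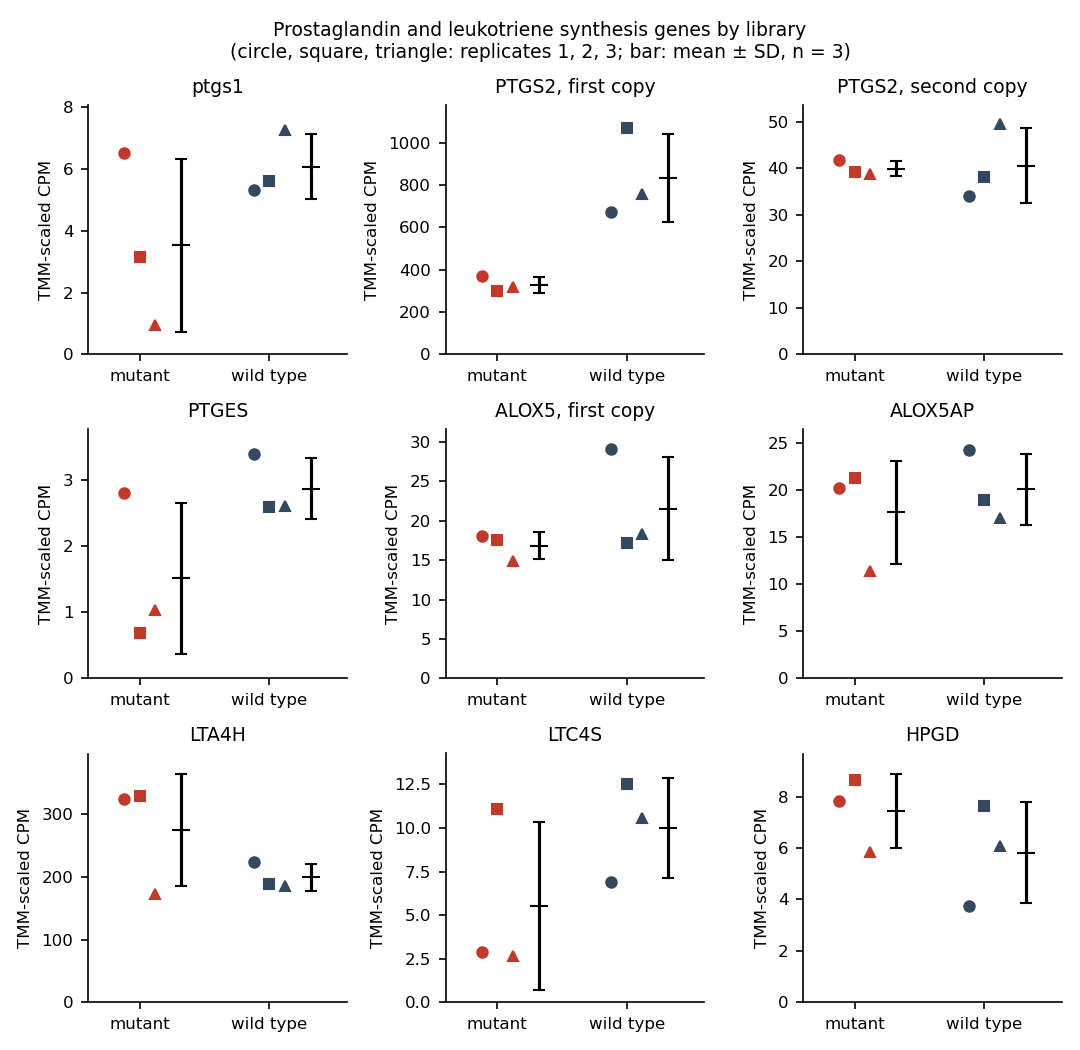
Level of each tested member in each library (vertical axes from 0, TMM-scaled CPM), with mutant libraries left of wild type libraries and bars for the mean ± SD of 3 libraries. The first PTGS2 copy lies at 301 to 373 CPM in mutant and 672 to 1071 CPM in wild type libraries, and in the other 8 panels the genotypes overlap.

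Among the cyclooxygenase genes, only the first PTGS2 copy passed the test. The first PTGS2 copy (ENSDARG00000004539) measured 373, 301 and 316 CPM in mutant replicates 1 to 3, against 672, 1071 and 760 CPM in wild type replicates 1 to 3. Every mutant library lay below every wild type library, and wild type replicate 2 was the highest of all. The means were 330 ± 37.8 CPM in mutant and 834 ± 210 CPM in wild type macrophages (SD, n = 3 each), a 2.53-fold lower level in the mutant (95% interval 1.89 to 3.38-fold; log2 fold change −1.34, SE 0.18). Its adjusted p was 0.0139, the 71st lowest p of all tested genes. An exact two-sided permutation test gave p = 0.1, the smallest value that 3 libraries against 3 allow.

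The call on the first PTGS2 copy depended on which libraries were kept. Without mutant replicate 2 its adjusted p was 0.0909, without mutant replicate 3 it was 0.0809, and without wild type replicate 3 it was 0.0618. Leaving out wild type replicate 2, its highest library, gave a log2 fold change of −1.11 with an adjusted p of 0.0293. Over these and all other settings tried, the log2 fold change lay between −1.46 and −1.05.

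The second PTGS2 copy (ENSDARG00000010276) did not pass the test. It measured 41.7, 39.2 and 38.7 CPM in mutant libraries, against 33.9, 38.0 and 49.6 CPM in wild type libraries. The mutant values fell inside the wild type range. The means were 39.9 ± 1.58 CPM in mutant and 40.5 ± 8.10 CPM in wild type macrophages (SD, n = 3 each), with a log2 fold change of −0.02 (SE 0.21, 95% interval −0.50 to 0.46, adjusted p = 0.983). That interval reaches no further than 1.42-fold lower and 1.37-fold higher in the mutant, and the sign changed with the scaling of the libraries.

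Set against each other within a library, where no scaling enters, the PTGS2 copies gave 8.94, 7.67 and 8.17 counts of the first per count of the second in mutant libraries. The wild type libraries gave 19.8, 28.2 and 15.3. The mutant ratios were all below the wild type ratios, at means of 8.26 ± 0.641 in mutant and 21.1 ± 6.51 in wild type macrophages (SD, n = 3 each; exact two-sided permutation test, p = 0.1, the smallest possible). The first copy held 89.2% ± 0.741 of the counts of both copies in the mutant and 95.2% ± 1.35 in the wild type (SD, n = 3 each). These counts are not corrected for transcript length, and how reads shared by the copies were assigned is not given in the sources used here.

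The share of heat shock genes was lower in every mutant library than in any wild type library, as for the first PTGS2 copy. It followed the order of that copy among wild type libraries but not among mutant libraries. There it was highest in replicate 3, and the copy in replicate 1. The 25 genes of a heat shock list held 3.69%, 3.66% and 4.03% of counts in mutant replicates 1 to 3, against 11.7%, 23.3% and 14.2% in wild type replicates 1 to 3. Counting error on these shares is small: the 95% Wilson interval for the highest, in wild type replicate 2, runs from 23.28% to 23.34%. Wild type replicate 2 was highest in both measures. Of 22 heat shock genes tested, 15 were called lower in the mutant, where 0.885% of all tested genes were. Their median log2 fold change was −2.98. With the heat shock genes removed from the library totals and the fit, the first PTGS2 copy had a log2 fold change of −1.33 and an adjusted p of 0.0140. Immediate early genes are a class that in mammals includes PTGS2 and that tissue dissociation can induce. Over 33 genes they summed to 13997 to 16390 CPM in mutant and 16746 to 21499 CPM in wild type libraries. Of 32 tested, 2 were called lower, and the median log2 fold change was −0.42. The part of the heat shock and immediate early genes in the PTGS2 difference was not tested.

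**Figure D2:**
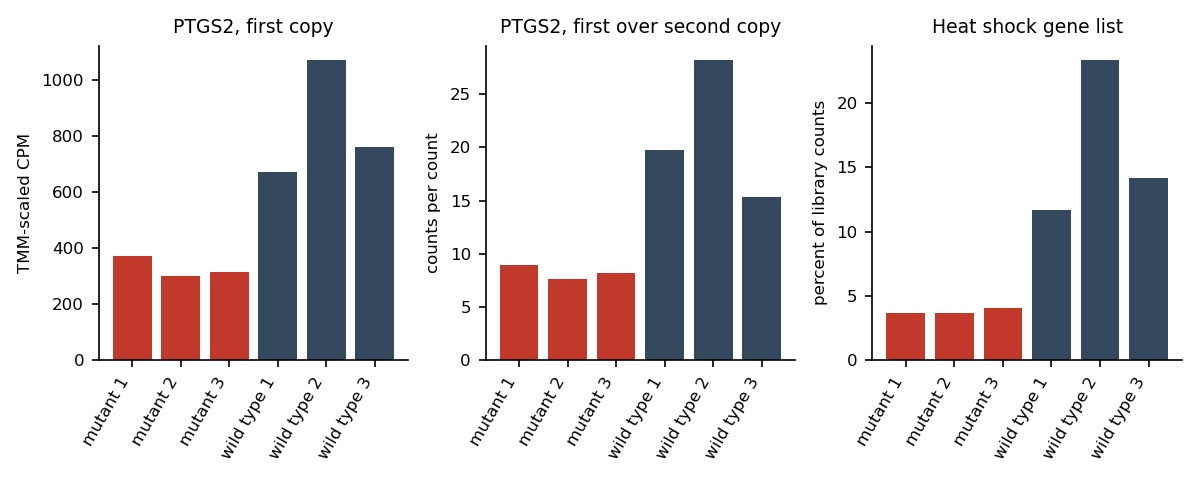
Bars by library, all from 0, for the first PTGS2 copy (TMM-scaled CPM), its counts per count of the second PTGS2 copy, and the share of library counts on the heat shock list (percent). In all 3 panels the mutant bars are below the wild type bars and wild type replicate 2 is the tallest, at 1071 CPM, 28.2 counts per count and 23.3% of counts.

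The constitutive cyclooxygenase gene ptgs1 (ENSDARG00000052148) was scarce and uneven in the mutant. It measured 6.51, 3.16 and 0.945 CPM in mutant libraries, from 65, 23 and 10 counts, against 5.33, 5.62 and 7.28 CPM in wild type libraries. Mutant replicate 1 lay within the wild type range and mutant replicates 2 and 3 below it. Its means were 3.54 ± 2.80 CPM in mutant and 6.08 ± 1.05 CPM in wild type macrophages (SD, n = 3 each; log2 fold change −0.78, SE 0.66, 95% interval −2.27 to 0.72, adjusted p = 0.693). The log2 fold change was −1.58 without mutant replicate 1 and −0.32 without mutant replicate 3. In mammals ptgs1 is abundant in platelets. The 12 genes of the thrombocyte marker list, 9 of which had counts in every library, summed to 172 to 204 CPM in mutant and 201 to 209 CPM in wild type libraries, with no member called. Most of this sum came from the genes named THBS1 and FN1. Of the other genes, itga2b was at 0 in all libraries but wild type replicate 2 (2.16 CPM). The gene mpl measured 0.30 to 1.92 CPM in mutant and 0.73 to 3.29 CPM in wild type libraries. GP1BB and gp9 were lower in every mutant library than in any wild type library. Their means were 1.72 and 0.371 CPM in mutant and 4.32 and 1.802 CPM in wild type macrophages. GP1BB had an adjusted p of 0.302, and gp9 was not tested. In the other direction, f5 was higher in every mutant library, at means of 24.7 CPM in mutant and 8.83 CPM in wild type (adjusted p = 0.187). The part of thrombocytes in the ptgs1 level was not tested.

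PTGES (ENSDARG00000020136), the inducible synthase that makes PGE2, was the scarcest tested member by counts, with 5 to 28 per library. It measured 2.81, 0.686 and 1.04 CPM in mutant libraries, against 3.39, 2.59 and 2.60 CPM in wild type libraries. Mutant replicates 2 and 3 were below all wild type libraries and mutant replicate 1 was not. The log2 fold change was −0.91 (SE 0.70, 95% interval −2.49 to 0.68, adjusted p = 0.650). That interval holds both a several-fold lower and a higher level in the mutant, and the value was −1.70 without mutant replicate 1 and −0.57 without mutant replicate 2.

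HPGD (ENSDARG00000012016) encodes the dehydrogenase that inactivates PGE2. It measured 7.82, 8.64 and 5.86 CPM in mutant libraries, against 3.76, 7.64 and 6.07 CPM in wild type libraries. The genotypes overlapped, at means of 7.44 ± 1.43 CPM in mutant and 5.82 ± 1.95 CPM in wild type macrophages (SD, n = 3 each; log2 fold change 0.35, SE 0.42, 95% interval −0.61 to 1.31, adjusted p = 0.794). Without wild type replicate 1 the log2 fold change was 0.12, and without wild type replicate 2 it was 0.61.

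In the leukotriene branch, no member passed the test. The first ALOX5 copy (ENSDARG00000057273), the lipoxygenase itself, measured 18.04, 17.6 and 14.9 CPM in mutant libraries, against 29.1, 17.2 and 18.4 CPM in wild type libraries. Wild type replicate 1 stood above the rest, and the other 5 libraries lay within 14.9 to 18.4 CPM. The fit gave −0.36 (log2 fold change, SE 0.29, 95% interval −1.01 to 0.29, adjusted p = 0.672), and −0.07 without wild type replicate 1. The second ALOX5 copy (ENSDARG00000043085) was not tested, with 2, 2 and 2 counts in mutant libraries and 1, 5 and 0 counts in wild type libraries. At the depth of wild type replicate 3, the exact 95% Poisson interval for a count of 0 reaches 0.639 CPM.

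ALOX5AP (ENSDARG00000054755), which presents arachidonic acid to ALOX5, measured 20.2, 21.3 and 11.3 CPM in mutant libraries, against 24.3, 18.9 and 17.0 CPM in wild type libraries. Mutant replicate 3 was the lowest and wild type replicate 1 the highest library. The means were 17.6 ± 5.46 CPM in mutant and 20.04 ± 3.77 CPM in wild type macrophages (SD, n = 3 each; log2 fold change −0.19, SE 0.31, 95% interval −0.90 to 0.52, adjusted p = 0.861). Its sign changed with the scaling of the libraries and without mutant replicate 3. Within libraries the first ALOX5 copy gave 0.891, 0.826 and 1.32 counts per count of ALOX5AP in mutant libraries and 1.2, 0.908 and 1.08 in wild type libraries, with overlap.

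LTA4H (ENSDARG00000006029), the hydrolase that makes LTB4, had the highest mean in the mutant relative to the wild type among the members. It measured 324, 329 and 172 CPM in mutant libraries, against 224, 189 and 185 CPM in wild type libraries. Mutant replicates 1 and 2 were above every wild type library, while mutant replicate 3 was below every one. The means were 275 ± 89.2 CPM in mutant and 199 ± 21.3 CPM in wild type macrophages (SD, n = 3 each; log2 fold change 0.47, SE 0.24, 95% interval −0.08 to 1.01, adjusted p = 0.439). Without mutant replicate 3 the log2 fold change was 0.72, with an adjusted p of 0.118. Neutrophil markers, of which all 10 genes had counts in every library, summed to 2774, 3007 and 1749 CPM in mutant replicates 1 to 3 and to 1877, 1649 and 2047 CPM in wild type replicates 1 to 3. By mean, the largest parts of this sum were MMP9 (910 CPM in mutant, 623 CPM in wild type) and srgn (461 CPM in mutant, 425 CPM in wild type). Among mutant libraries the sum was thus highest in replicates 1 and 2, as LTA4H was. Among wild type libraries it was highest in replicate 3, where LTA4H was lowest. The part of neutrophils in the LTA4H levels was not tested.

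LTC4S (ENSDARG00000062598), the synthase that joins glutathione to the leukotriene precursor, measured 2.91, 11.1 and 2.65 CPM in mutant libraries, against 6.91, 12.5 and 10.6 CPM in wild type libraries. Mutant replicates 1 and 3 were below all wild type libraries and mutant replicate 2 was among them. Its means were 5.55 ± 4.81 CPM in mutant and 10.0 ± 2.86 CPM in wild type macrophages (SD, n = 3 each; log2 fold change −0.86, SE 0.59, 95% interval −2.21 to 0.48, adjusted p = 0.601). Mutant replicate 2 also held the most lyz, a lysozyme gene of neutrophils and other myeloid cells, with 81.8, 668 and 31.6 CPM in mutant libraries and 71.7, 50.4 and 232 CPM in wild type libraries, and the muscle transcripts given above. The genes of the neutrophil list differed in this. Among mutant libraries npsn (150, 234 and 79.8 CPM) and srgn were also highest in replicate 2. MMP9, mmp13a, cxcr1, scpp8, nccrp1 and illr4 were highest in replicate 1, and CSF3R in replicate 3. In the sum of the list, given above, mutant replicate 1 was close to replicate 2, while its LTC4S level was low. Without mutant replicate 2 the log2 fold change of LTC4S was −1.84, with an adjusted p of 0.184, and the part of the other cells in its level was not tested.

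LTA4H and LTC4S draw on the same precursor. Within libraries there were 112, 29.6 and 65.1 counts of LTA4H per count of LTC4S in mutant macrophages, against 32.4, 15.1 and 17.5 in wild type macrophages. The genotypes overlapped only between mutant replicate 2 and wild type replicate 1. No test was made of this ratio, which is not corrected for length.

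**Figure D3:**
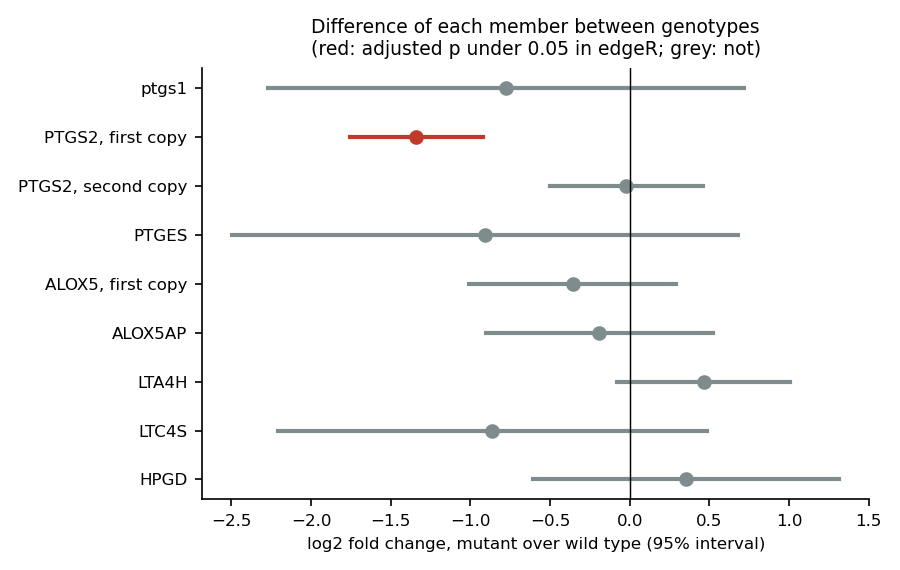
Log2 fold change of each tested member, mutant over wild type, with its 95% interval (horizontal axis), in red where the adjusted p was under 0.05. The interval of the first PTGS2 copy runs from −1.76 to −0.92, and the other 8 intervals include 0.

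The members also differed in how evenly they were expressed among mutant libraries. The coefficient of variation among mutant libraries was 86.7% for LTC4S, 79.3% for ptgs1 and 75.2% for PTGES, where counting alone would give 14.7%, 17.5% and 26.1%. Among wild type libraries the same genes varied by 28.5%, 17.3% and 16.1%, where counting alone would give 12.1%, 15.5% and 22.2%. LTA4H varied by 32.4% among mutant and 10.7% among wild type libraries, where counting alone would give 2.01% and 2.67%. ALOX5AP also varied more among mutant libraries, by 30.99% against 18.8% among wild type libraries. The other tested members, both PTGS2 copies, the first ALOX5 copy and HPGD, varied more among wild type libraries. The first PTGS2 copy varied by 11.5% among mutant and 25.1% among wild type libraries. The first ALOX5 copy varied by 9.94% and 30.5%, and HPGD by 19.2% and 33.5%, in the same order. The second PTGS2 copy varied least among mutant libraries, by 3.97%, which is no more than the 5.19% of counting.

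The wider eicosanoid pathway was described from a list of 74 names, which matched 57 genes besides the members, 41 of them tested. None passed edgeR's test in either direction, 9 had an unadjusted p under 0.05 (14.2% of all tested genes did), and DESeq2 called 5 lower and 0 higher, where it called 2.84% of all tested genes lower and 2.81% higher. Of the 41, 26 had negative and 15 had positive log2 fold changes, with a median of −0.44. The libraries of the genotypes did not overlap for 10 of them, 9 lower and 1 higher in the mutant, a share of 24.4% beside the 20.6% of all tested genes.

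Upstream, among genes that release or consume arachidonic acid and related lipids, 9 of 11 were tested and none passed. PLA2G7, which degrades the lipid mediator platelet-activating factor, measured 82.8 ± 6.37 CPM in mutant and 80.0 ± 4.92 CPM in wild type macrophages (SD, n = 3 each; log2 fold change 0.05, adjusted p = 0.934). The monoglyceride lipase gene mgll measured 12.7 ± 7.53 CPM in mutant and 19.9 ± 1.26 CPM in wild type, and PLA2G6, a calcium-independent phospholipase, 8.53 ± 3.09 CPM in mutant and 4.77 ± 4.12 CPM in wild type (adjusted p = 0.557 and 0.678). In the RefSeq annotation of the GRCz12tu assembly, each ptgs2 gene lies next to a gene of cytosolic phospholipase A2, ptgs2a next to pla2g4aa and ptgs2b next to pla2g4ab. Of the genes named PLA2G4A, chosen for this position, ENSDARG00000024546 measured 0, 1.51 and 4.63 CPM in mutant libraries and 5.46, 8.79 and 4.16 CPM in wild type libraries (log2 fold change −1.57, SE 1.07, adjusted p = 0.596). The other, ENSDARG00000017141, had too few counts to be tested. Which of them lies beside which PTGS2 copy is not given by the name table.

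Among terminal prostanoid synthases other than PTGES, 7 of 8 had negative log2 fold changes and none passed. PTGIS, the prostacyclin synthase, measured 148, 113 and 105 CPM in mutant libraries, against 170, 368 and 196 CPM in wild type libraries. Every mutant library was below every wild type library, and wild type replicate 2 was the highest, as for the first PTGS2 copy (log2 fold change −1.004, SE 0.29, adjusted p = 0.155 in edgeR and 0.00854 in DESeq2). The genes named PTGES3, which encode a cytosolic prostaglandin E synthase that is also the HSP90 co-chaperone p23, measured 222 ± 15.7 CPM in mutant and 301 ± 6.60 CPM in wild type (ENSDARG00000089626, log2 fold change −0.44, adjusted p = 0.145) and 68.6 ± 4.99 CPM in mutant and 119 ± 21.8 CPM in wild type (ENSDARG00000037284, log2 fold change −0.80, adjusted p = 0.0816; SD, n = 3 each). Both were called by DESeq2, with adjusted p = 0.0193 and 0.00150, and the second by edgeR under a stricter count filter. The heat shock shares given above were also lower in every mutant library than in any wild type library. Their part in the levels of these synthases was not tested.

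Of prostaglandin transport and breakdown genes other than HPGD, 5 of 5 were tested and none passed. The exporter gene ABCC4 measured 60.3 ± 6.77 CPM in mutant and 44.3 ± 12.4 CPM in wild type (log2 fold change 0.44, adjusted p = 0.469). The carbonyl reductase gene cbr1l measured 16.2 ± 3.96 CPM in mutant and 15.5 ± 7.83 CPM in wild type (adjusted p = 0.971). SLCO2A1, the prostaglandin uptake transporter, measured 10.1 ± 0.930 CPM in mutant and 19.7 ± 7.64 CPM in wild type (SD, n = 3 each; log2 fold change −0.96, SE 0.34, adjusted p = 0.246), without overlap of the genotypes.

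Receptor genes could be tested for 6 of 12 prostanoid and 4 of 8 leukotriene receptors, and none passed edgeR's test. PTGIR, the prostacyclin receptor, measured 8.32, 10.8 and 5.76 CPM in mutant libraries, against 13.7, 26.1 and 16.6 CPM in wild type libraries. These did not overlap (log2 fold change −1.18, SE 0.37, adjusted p = 0.190 in edgeR and 0.0499 in DESeq2). LTB4R, a receptor for LTB4, measured 90.5, 86.0 and 83.2 CPM in mutant libraries, against 126, 140 and 122 CPM in wild type libraries. Its libraries did not overlap either, and it was 1.49-fold lower in the fit without passing edgeR's test (log2 fold change −0.58, SE 0.15, adjusted p = 0.111; 0.00631 in DESeq2). For the E-type prostaglandin receptors, PTGER4 (ENSDARG00000035415) measured 13.7 ± 4.17 CPM in mutant and 11.3 ± 2.81 CPM in wild type and PTGER2 (ENSDARG00000037033) 7.48 ± 1.196 CPM in mutant and 3.95 ± 3.31 CPM in wild type (adjusted p = 0.817 and 0.714). The other tested receptors of this type were lower in mean in the mutant. PTGER3 had 4, 3 and 6 counts in mutant libraries and 13, 14 and 10 counts in wild type libraries, without overlap (log2 fold change −1.91, SE 0.70, adjusted p = 0.261), and the second PTGER2 gene (ENSDARG00000011434) measured 2.44 ± 0.329 CPM in mutant and 3.47 ± 1.39 CPM in wild type (log2 fold change −0.51, adjusted p = 0.772). The genes named OXER1, after a receptor for oxidised fatty acids made by lipoxygenases, measured 27.6 ± 8.27 CPM in mutant and 15.5 ± 7.74 CPM in wild type (ENSDARG00000087084) and 5.24 ± 2.28 CPM in mutant and 7.81 ± 1.35 CPM in wild type (ENSDARG00000062874; adjusted p = 0.413 and 0.675).

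Of the remaining lipoxygenases, alox12 measured 16.2 ± 2.69 CPM in mutant and 23.4 ± 11.2 CPM in wild type (log2 fold change −0.52, adjusted p = 0.650). The gene alox5b.2 had 4, 2 and 2 counts in mutant libraries and 12, 16 and 21 counts in wild type libraries, with no overlap (log2 fold change −3.03, SE 0.78, adjusted p = 0.116), and alox5b.3 was too scarce to be tested. Among glutathione transferases and peptidases near LTC4S in the pathway, 7 of 10 were tested and none passed. MGST1 (ENSDARG00000022165) measured 59.8 ± 0.968 CPM in mutant and 51.4 ± 4.02 CPM in wild type (adjusted p = 0.657). Its mutant libraries were all above its wild type libraries. The gene mgst3b measured 44.8 ± 4.32 CPM in mutant and 64.5 ± 5.67 CPM in wild type (adjusted p = 0.229), also without overlap. The gene ggt1a measured 22.0 ± 12.6 CPM in mutant and 13.9 ± 5.90 CPM in wild type (SD, n = 3 each; adjusted p = 0.611).

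**Figure D4:**
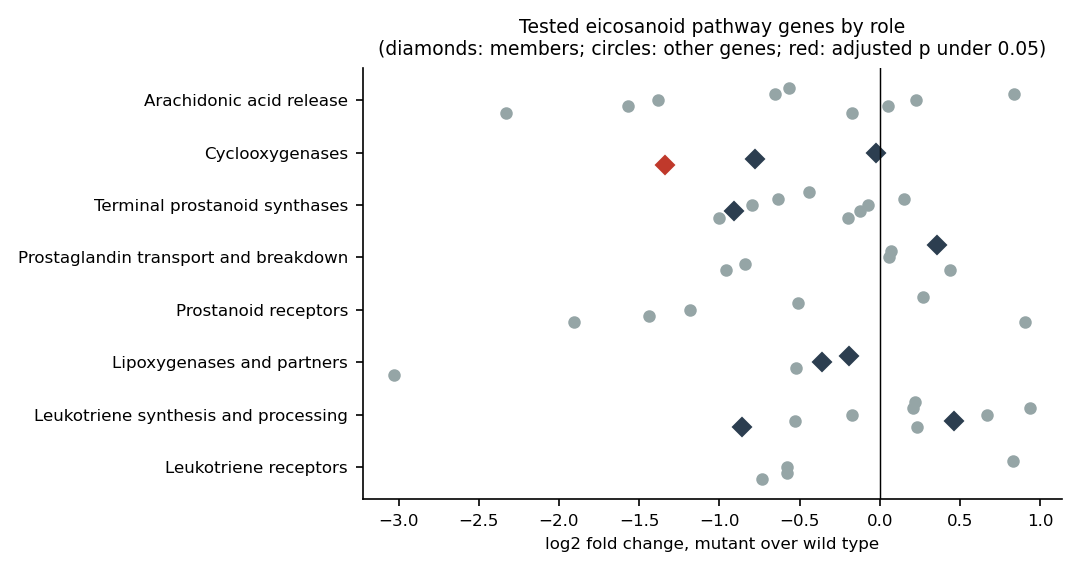
Log2 fold change, mutant over wild type (horizontal axis), of the 9 tested members (diamonds) and 41 other tested pathway genes (circles), in rows by role. The only gene in red, with an adjusted p under 0.05, is the first PTGS2 copy at −1.34, and values range from −3.03 to 0.94.

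The genes whose profile over the 6 libraries was most like that of the first PTGS2 copy were sought. The measure was the root mean square difference of log2 CPM centred on each gene's mean. It was taken over 13942 genes with a symbol and a mean log2 CPM of at least 1. The nearest were tomm34, encoding a co-chaperone of mitochondrial protein import (difference 0.08), SQSTM1, an autophagy cargo adaptor (0.09), col9a3, a collagen chain (0.10), MKNK2, a kinase downstream of MAP kinases (0.10), and PPP1R12A, a subunit of myosin phosphatase (0.12). The choice by profile fixes that these genes run close to it over the libraries, but their order of libraries was not always the same. Among mutant libraries MKNK2 and PPP1R12A were highest in replicate 3, and the first PTGS2 copy in replicate 1. Among wild type libraries col9a3 was lowest in replicate 3, and the first PTGS2 copy in replicate 1. SQSTM1 measured 642, 566 and 621 CPM in mutant libraries, against 1134, 1785 and 1446 CPM in wild type libraries. Among the members, the nearest to the first PTGS2 copy was PTGES, at a difference of 0.60 and rank 1938, and the farthest was LTA4H, at 0.95 and rank 8707.

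**Figure D5:**
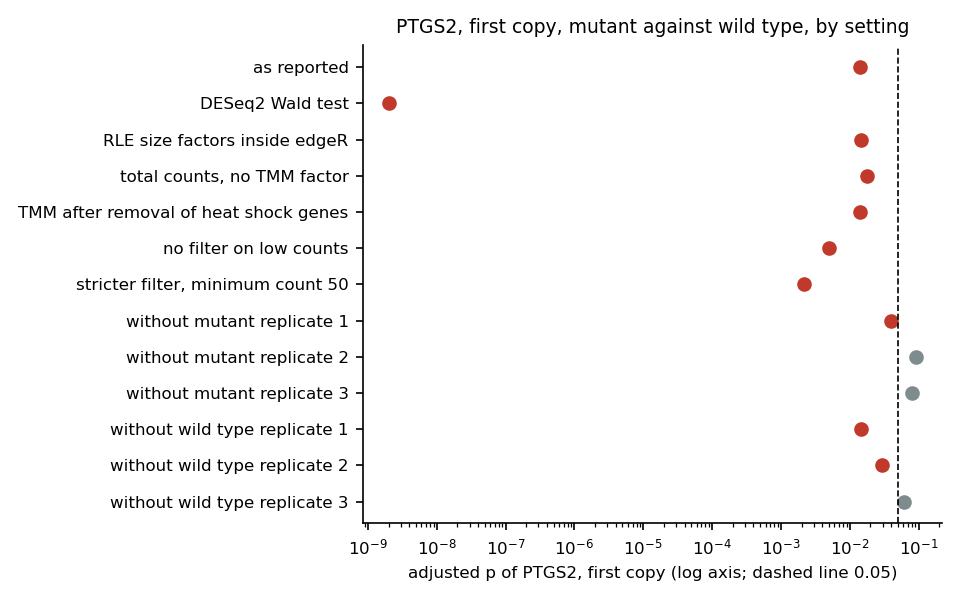
Adjusted p of the first PTGS2 copy (horizontal log axis, dashed line at 0.05) in the fit as reported and under other tests, scalings, filters and sets of libraries (rows). It was under 0.05 in the fit as reported (0.0139) and above it without mutant replicate 2 (0.0909), mutant replicate 3 (0.0809) or wild type replicate 3 (0.0618).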

How the data were processed

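Gene expression was measured by RNA sequencing in 6 libraries, 3 mutant and 3 wild type, grouped by their titles. The authors deposited raw read counts per Ensembl gene, without normalization. Per the labels' protocols, cDNA was amplified with a low-input kit and reads were aligned to GRCz10. Bowtie and TopHat are named, without versions, in the submitters' processing notes. For the counter, the annotation release and the handling of strand and shared reads, nothing is given in the sources used here. Counts carry no molecular identifiers, so intervals from counting cover counting error only.

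Symbols, known for 26121 of 31962 genes, were matched exactly, else ignoring case, else after removal of a paralog letter, and 8 of the 74 pathway names matched none. Members and lists were chosen with earlier results of these data known. Genes named beside the members were the called ones and the 3 with the highest mean CPM in each role group; PLA2G4A, PTGER3, the second PTGER2 gene and the marker genes stand beside a result they touch.

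Counts were fitted in R 4.3.3 with edgeR 4.0.16 (filterByExpr, minimum count 10, TMM, glmQLFit and glmQLFTest two-sided, genotype as sole term, Benjamini-Hochberg over 16499 genes). Standard errors (Wald) and 95% intervals use the quasi-likelihood variance. Permutation tests used all regroupings of the libraries. The test was checked on simulated data. Libraries of a genotype always differed beyond sampling noise, with a chi-square of at least 18.3 per gene. Alternatives were DESeq2 1.42.0, other scalings and filters, the replicate number as a block, and each library left out.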

Additional observations from a re-analysis of the deposited data

How the results depend on the processing

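Over 13 alternatives, 106 of 115 values of the members kept their direction and their side of the threshold. The first PTGS2 copy was lower in all 13 and called in 9. Its call was lost without mutant replicate 2, mutant replicate 3 or wild type replicate 3, and the number of members called lower then fell to 0; with any library left out it was 0 to 1 lower and 0 higher. Values that changed sign were those of the second PTGS2 copy with total counts in place of TMM (0.25), without mutant replicate 3 (0.0056) and without wild type replicate 3 (0.15), and of ALOX5AP with total counts (0.066) and without mutant replicate 3 (0.054). With any library left out they ranged from −0.13 to 0.15 and from −0.34 to 0.054. Total counts moved the median of all genes by 0.27 on the log2 scale. Over all genes, 51 were higher and 146 lower; DESeq2 called 463 and 468, a minimum count of 50 gave 140 and 293, total counts 217 and 117, and leaving out 1 library 3 to 11 higher and 43 to 98 lower (fewest without wild type replicate 3).

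The replicate numbers share no stated animal or batch, and same-numbered libraries did not deviate together (correlations −0.0262, 0.0024 and −0.0293). With the replicate number as a block, 13 genes were higher and 84 lower, 0 members were lower, and the first PTGS2 copy had a log2 fold change of −1.31 with an adjusted p of 0.0523. ptgs1 and PTGES had too few counts for the minimum count of 50 and an adjusted p of NA in DESeq2. Counts per library were 5 to 87 for ptgs1, PTGES, LTC4S and HPGD. For the first 3 of these the spread between mutant libraries was well above counting error, so depth alone does not set their precision. For HPGD the coefficient of variation was 19.2% in mutant and 33.5% in wild type libraries, where counting alone would give 12.2% and 15.9%.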
